A study of Homo sapiens with 12 samples.

Results

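The genes described here were 46 interferon-stimulated genes, meaning genes that cells switch on when they sense interferon, followed across the 4 treatment groups of an Affymetrix expression study of ML-2, a human acute myeloid leukaemia cell line. The symbols were listed from general knowledge of interferon biology, with earlier results of these data known, so counts over them are descriptions. A gene belonged to the set when its symbol stood on that list and at least 1 probe set carried it and no other. Of the 46 symbols, 44 had such a probe set, out of 19775 genes with one, and the set held 88 probe sets in all. STAT2, a transcription factor of interferon signalling, and IFI30, a lysosomal thiol reductase, had none and were not analysed here. Where a gene had several probe sets, as 25 of the 44 did, the one brightest on average across the 12 arrays stood for it. A gene entered the tests when that probe set exceeded the array's median in at least 3 arrays, and 34 of the 44 members passed, among 12689 genes tested.

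Each of the 4 groups had 3 arrays. The solvent group received only solvent. The SGI-110 group received 2 µM SGI-110 for 33 h. The ASTX660 group received 5 µM ASTX660 for 9 h. The combination group received 2 µM SGI-110 for 24 h, after which 5 µM ASTX660 was added for a further 9 h. The labels do not give whether SGI-110 stayed on for those 9 h. Comparisons of the combination with SGI-110 alone therefore cannot separate a difference in exposure from ASTX660. SGI-110, also called guadecitabine, is a dinucleotide that releases decitabine, an inhibitor of DNA methyltransferases. ASTX660 antagonises the inhibitor of apoptosis proteins. Samples were taken in 3 independent experiments, per the series design, and the array titles carry the numbers 2, 9 and 13, read here as those experiments. All groups were a single established line in culture, with no other cells added.

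Interferons are secreted proteins that a cell makes when its sensors meet viral or misplaced nucleic acid. Type I interferons bind the IFNAR receptor, whose kinases JAK1 and TYK2 act on STAT2. With IRF9 it forms part of a complex that binds the interferon-stimulated response element (ISRE) in promoters. Interferon gamma acts mainly through a different element called GAS. The genes so induced bind or cut viral RNA, attach the ubiquitin-like protein ISG15 to other proteins, or restrain virus entry and release. Demethylating drugs are known to raise such genes in tumour cells.

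Promoter windows of 250 bases before to 50 bases after the start were taken from RefSeq (GRCh38.p14) to show the element that names the set. The table held such a window for 38 members. GBP2, IFIT2, MX2, OAS2, OASL, PML, TRIM22 and USP18 were without an entry. The core of the ISRE was searched as GAAANNGAAA on either strand (TTTCNNTTTC on the other), and overlapping matches were all counted. It stood in the windows of 23 of 38 members (60.5%), against 1255 of 35116 windows in the table (3.57%) and 279 of the 10227 windows of genes tested (2.73%). The GAS core, searched as TTCNNNGAA, which reads alike on both strands and may overlap the ISRE core, stood in 10 of 38 member windows (26.3%) and in 7.66% of all windows. A match is a description of the letters and neither a bound site nor a cause. Cores with another gap, such as gaaacgaaa in the windows of OAS1, RSAD2 and XAF1, were not counted. A window without a match may thus hold a variant of the element. The 6 windows printed next were chosen to set 4 genes that were higher after SGI-110 beside 2 that were not, all 6 holding at least 2 ISRE cores, and capitals mark those cores. The windows are chr10:89327747-89328046 (plus strand) for IFIT3, chr4:88456869-88457168 (plus strand) for HERC5, chr1:27672143-27672442 (minus strand) for IFI6, chr12:112938224-112938523 (plus strand) for OAS3, chr10:89392373-89392672 (plus strand) for IFIT1 and chr19:17405581-17405880 (minus strand) for BST2.
IFIT3: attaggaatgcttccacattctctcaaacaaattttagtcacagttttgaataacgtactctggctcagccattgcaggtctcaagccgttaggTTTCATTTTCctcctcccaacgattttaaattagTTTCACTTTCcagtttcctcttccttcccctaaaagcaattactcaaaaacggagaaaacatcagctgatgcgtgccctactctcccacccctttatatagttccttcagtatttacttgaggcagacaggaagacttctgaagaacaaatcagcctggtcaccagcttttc
HERC5: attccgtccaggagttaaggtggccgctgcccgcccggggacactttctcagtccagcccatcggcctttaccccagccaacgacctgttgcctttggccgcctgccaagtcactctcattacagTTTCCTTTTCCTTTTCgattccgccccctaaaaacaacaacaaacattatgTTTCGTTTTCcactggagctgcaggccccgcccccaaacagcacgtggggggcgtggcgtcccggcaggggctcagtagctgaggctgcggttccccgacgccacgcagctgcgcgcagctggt
IFI6: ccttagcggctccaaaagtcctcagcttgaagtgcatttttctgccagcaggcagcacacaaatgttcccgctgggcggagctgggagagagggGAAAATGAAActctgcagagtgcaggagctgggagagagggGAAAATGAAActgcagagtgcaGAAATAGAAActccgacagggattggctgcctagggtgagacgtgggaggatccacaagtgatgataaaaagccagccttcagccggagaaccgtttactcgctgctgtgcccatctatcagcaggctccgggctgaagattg
OAS3: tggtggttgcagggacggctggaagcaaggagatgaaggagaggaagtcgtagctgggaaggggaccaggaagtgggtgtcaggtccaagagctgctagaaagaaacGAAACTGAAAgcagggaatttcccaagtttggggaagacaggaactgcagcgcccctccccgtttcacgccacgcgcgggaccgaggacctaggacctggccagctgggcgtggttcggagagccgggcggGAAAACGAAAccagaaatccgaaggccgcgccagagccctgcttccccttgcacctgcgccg
IFIT1: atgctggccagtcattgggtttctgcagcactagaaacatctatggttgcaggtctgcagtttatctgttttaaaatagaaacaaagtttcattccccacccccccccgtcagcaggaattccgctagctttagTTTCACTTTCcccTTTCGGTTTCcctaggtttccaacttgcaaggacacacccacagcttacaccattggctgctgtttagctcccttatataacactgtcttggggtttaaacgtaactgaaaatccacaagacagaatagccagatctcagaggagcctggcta
BST2: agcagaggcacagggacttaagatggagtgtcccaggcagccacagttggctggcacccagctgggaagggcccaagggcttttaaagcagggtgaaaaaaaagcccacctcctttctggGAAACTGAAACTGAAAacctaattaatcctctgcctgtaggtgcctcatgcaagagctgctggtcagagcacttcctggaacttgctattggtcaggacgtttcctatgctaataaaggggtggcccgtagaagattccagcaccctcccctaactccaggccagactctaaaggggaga
In the IFIT3 window the cores began at -156 and -122, counting the base before the start as -1. The IFIT1 window held them at -116 and -103, and its core at -116 had the letters of the IFIT3 core at -122. HERC5 had an overlapping pair at -125 and -119 and another at -74, and BST2 had an overlapping pair at -130 and -124. IFI6 carried cores at -156, -115 and -93, and OAS3 at -143 and -12. IFIT3, HERC5, IFI6 and OAS3 were higher after SGI-110. IFIT1 did not exceed the array median in any array, and BST2 differed by -0.08 from solvent on the log2 scale. The core was present in 7 of the 11 windows of members higher after SGI-110 (63.6%), in 9 of 17 windows of members tested and not called (52.9%), and in 7 of 8 windows of members too dim to test (87.5%).

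The same windows gave a count of CpG sites, the base pairs whose methylation decitabine reduces. Member windows held 0 to 45 CpG sites with a median of 7.5, against a median of 26.0 in the windows of genes tested and 14.0 in all windows of the table. Windows of members higher after SGI-110 held 0 to 21 (median 9.0), and those of members tested and not called held 1 to 36 (median 7.0). SAMD9L had 0 CpG sites in its window and IFI16 had 1, while HERC5 had 21 and OAS3 had 20, and these 4 genes were all higher after SGI-110. Methylation itself was not measured on these arrays.

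The values are log2 intensities, so a difference of 1 is a doubling of signal, and the level of a gene cannot be set against that of another gene. Array medians lay between 4.688 and 4.774. Of the variance over the genes tested, 51.2% lay on the first principal component. The second (13.9%) set the arrays numbered 13 apart. On the third (11.7%) the ASTX660 array of experiment 2 scored 16.95 and the other 11 arrays -9.28 to 4.11. Of 7 myeloid markers 5 passed the brightness filter, with means over 12 arrays of 13.34 for MPO, 13.29 for LYZ, 10.84 for CEBPA, 8.26 for CSF3R and 6.95 for SPI1, while ANPEP was dim and CD33 was not analysed here. Some markers of other lineages passed as well, namely CD3D (4.79) and CD3E (5.48) of T cells, CD79A (5.89) of B cells, HBB (5.75) and ALAS2 (4.88) of erythroid cells, TCF4 (10.75) of plasmacytoid dendritic cells, and KRT8 (6.23) and KRT18 (6.60) of epithelium. CD3G, CD8A, MS4A1, CLEC4C, LILRA4, EPCAM and CDH1 did not pass. In such bulk RNA a change in the number of responding cells and a change in RNA per cell cannot be told apart.

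After SGI-110 alone, 12 of the 34 members tested were higher than in solvent and 0 were lower. Those 12 were TRIM22, IFIT3, IFI6, LGALS3BP, HERC5, HERC6, OAS3, IFI16, SAMD9L, IFI35, PLSCR1 and PARP14. The calls came from limma, a linear model fitted over all 12689 genes, at a Benjamini-Hochberg adjusted p under 0.05. Over all genes tested 15.4% were called, and 9.5% were called higher. The median member difference was 0.18 on the log2 scale (range -0.38 to 1.11), against 0.00 for all genes, and 26 of 34 differences were positive. In 20 members all 3 SGI-110 arrays lay above all 3 solvent arrays, as they did in 2480 of all genes tested. The numbers 2, 9 and 13 paired these arrays, and with them as a block 16 members were called higher and 1 lower, while the share of all genes called became 25.2%. That share was 9.79% without the solvent array of experiment 9 and 10.2% without the SGI-110 array of experiment 13, with 11 and 12 members called.

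**Figure D1:**
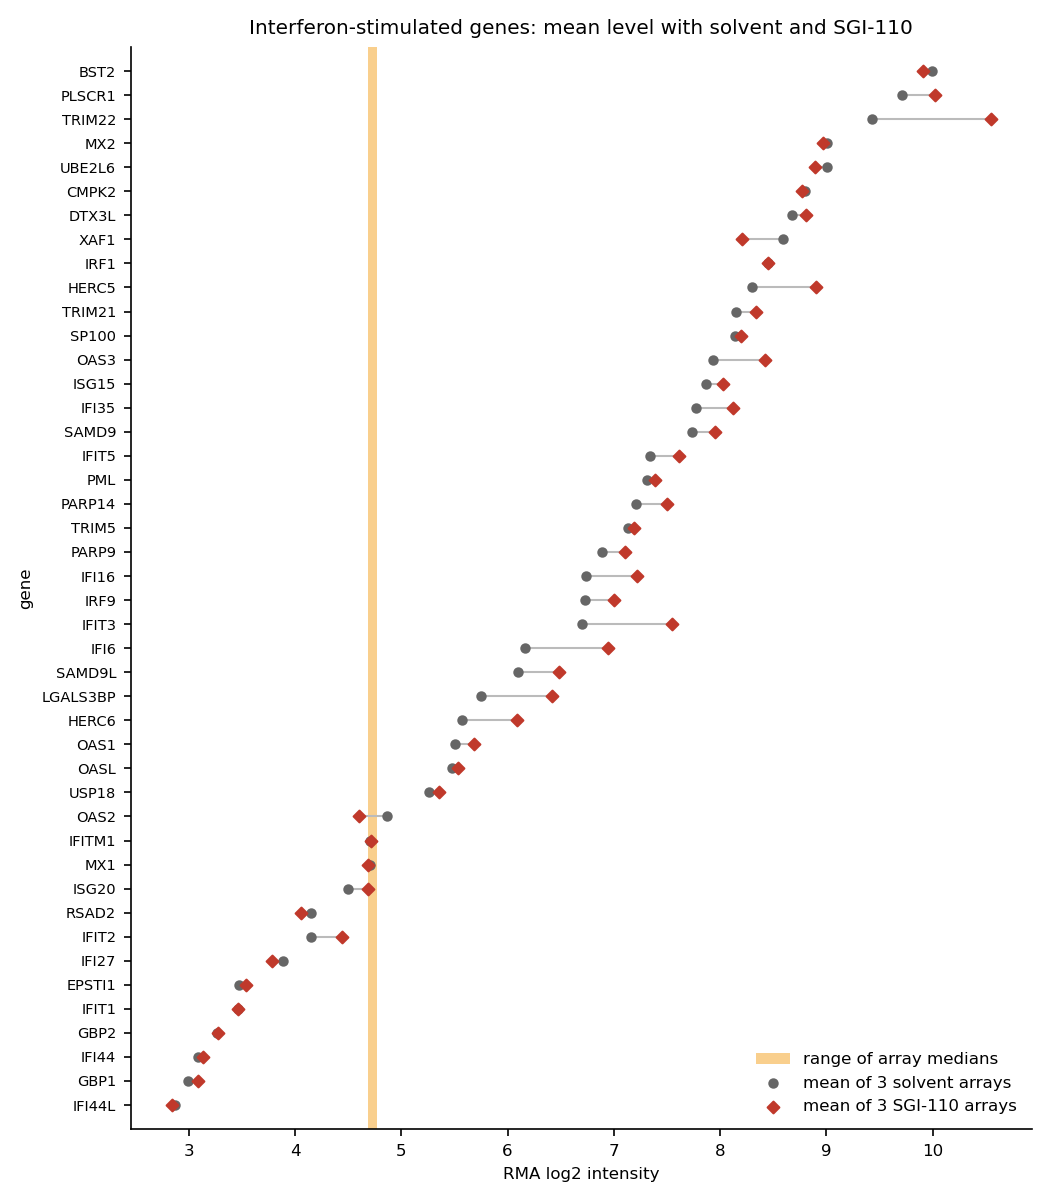
Each line is 1 of the 44 members with a probe set, ordered by solvent level. Grey circles give the mean of 3 solvent arrays and red diamonds that of 3 SGI-110 arrays in log2 intensity, and the orange band spans the array medians of 4.688 to 4.774. Most bright members lie right of the band, with TRIM22 moving from 9.43 to 10.55, and the 10 dim members lie at or left of it.

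Pooling the design by drug, 6 arrays had received SGI-110 and 6 had not. In 12 members each of the 6 arrays with SGI-110 was above each of the 6 without it, and no member had all 6 lower. Among all genes tested 8.5% had all 6 higher and 7.92% had all 6 lower. Of the 12 members called after SGI-110 alone, 10 were among these, and HERC6 and PARP14 were not. The others were IRF9 and OAS1, the latter by a gap smaller than the second decimal.

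TRIM22, an antiviral ubiquitin ligase of the tripartite motif family, had the largest difference among the members tested. In experiments 2, 9 and 13 it read 9.64, 9.27 and 9.39 in solvent, 10.65, 10.51 and 10.48 after SGI-110, 9.73, 9.35 and 9.42 after ASTX660, and 10.58, 10.53 and 10.56 after the combination. The 6 arrays with SGI-110 stood together above the other 6, with no overlap. The rise after SGI-110 was 1.11 on the log2 scale (SE 0.0999, 95% interval 0.90 to 1.33, 2.17-fold, limma adjusted p = 1.3e-05), and the combination exceeded ASTX660 by 1.06 (adjusted p = 1.99e-05). The other tripartite motif and nuclear body genes did not pass. TRIM21, an antibody receptor in the cytosol, differed by 0.19 (adjusted p = 0.12), with 8.18, 8.09 and 8.17 in solvent and 8.26, 8.39 and 8.38 after SGI-110. TRIM5, which recognises retroviral capsids, differed by 0.06 and PML, the organiser of nuclear bodies, by 0.08. SP100, another nuclear body protein, differed by 0.06 after SGI-110 and by 0.17 after the combination relative to solvent (adjusted p = 0.121, or 0.0494 with the replicate block). Its other probe sets that passed the brightness filter went both ways. They gave 0.08, 0.07, -0.02 and -0.31 after SGI-110, and 0.21, 0.07, -0.15 and -0.34 for the combination against ASTX660. TRIM5 and PML read 7.13 ± 0.09 and 7.31 ± 0.067 in solvent (mean ± SD, n = 3) and 7.19 ± 0.194 and 7.39 ± 0.034 after SGI-110.

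Of the IFIT family, whose proteins bind viral RNA or its translation partners, only IFIT3 and IFIT5 were bright enough to test. IFIT3 read 6.89, 6.45 and 6.77 in solvent, 7.52, 7.65 and 7.48 after SGI-110, 7.32, 6.83 and 6.84 after ASTX660, and 7.74, 7.83 and 7.60 after the combination. Arrays with SGI-110 were again all above those without, and the ASTX660 array of experiment 2 was the highest of those without. IFIT3 rose by 0.85 after SGI-110 (SE 0.133, 1.80-fold, adjusted p = 0.000834) and by 1.02 after the combination relative to solvent (adjusted p = 0.0002). Its other probe set gave 0.66 for the first of these. IFIT5 read 7.18, 7.32 and 7.53 in solvent and 7.67, 7.60 and 7.55 after SGI-110, with 7.57, 7.54 and 7.42 after ASTX660 and 7.35, 7.67 and 7.69 after the combination. The SGI-110 arrays of IFIT5 lay just above the solvent arrays, whereas the combination overlapped every other group, and the difference of 0.26 did not pass (adjusted p = 0.105, or 0.0462 with the replicate block). The other probe set of IFIT5 gave 0.02 for SGI-110 against solvent.

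The OAS genes encode enzymes that sense double-stranded RNA and make 2-5A, the activator of RNase L, except OASL, which lacks that activity. OAS3 read 8.01, 7.75 and 8.04 in solvent, 8.42, 8.35 and 8.49 after SGI-110, 8.04, 7.79 and 7.90 after ASTX660, and 8.37, 8.45 and 8.52 after the combination. The arrays fell into a lower and a higher set by SGI-110. OAS3 rose by 0.49 (SE 0.0876, 1.40-fold, adjusted p = 0.00201) and exceeded ASTX660 alone by 0.54 in the combination (adjusted p = 0.00116). OAS1 read 5.53, 5.42 and 5.58 in solvent, 5.58, 5.67 and 5.79 after SGI-110, 5.57, 5.14 and 5.33 after ASTX660, and 5.81, 5.79 and 5.99 after the combination. The combination arrays were the highest or level with the highest SGI-110 array, and the ASTX660 arrays of experiments 9 and 13 were the lowest. OAS1 did not pass after SGI-110 (0.17, adjusted p = 0.342) but was higher in the combination than after ASTX660 (0.52, 1.43-fold, adjusted p = 0.00547). Its other probe set gave 0.54 and 0.45 for these comparisons. With that probe set (adjusted p = 0.00506) or the mean of both (0.36, adjusted p = 0.0152), OAS1 was called higher after SGI-110, so this call turns with the probe set. OAS2 (4.87 ± 0.281 in solvent, 4.60 ± 0.109 after SGI-110) differed by -0.27 (adjusted p = 0.26) and exceeded the array median in 4 of 12 arrays only. OASL differed by 0.05 (5.48 ± 0.197 and 5.53 ± 0.126).

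Among the genes of ISG15 and its conjugation, HERC5 and HERC6 rose and ISG15 itself did not pass after SGI-110 alone. HERC5, the ligase that attaches ISG15 to new proteins, read 8.33, 8.31 and 8.24 in solvent, 8.93, 8.93 and 8.83 after SGI-110, 8.47, 8.46 and 8.33 after ASTX660, and 8.97, 8.98 and 8.88 after the combination. Its replicates lay close together, and the sets with and without SGI-110 were far apart by comparison. HERC5 rose by 0.60 (SE 0.062, 1.52-fold, adjusted p = 3.5e-05), and by 0.52 when the combination was set against ASTX660 (adjusted p = 0.000124). HERC6, its relative, read 5.84, 5.44 and 5.42 in solvent, 6.13, 6.16 and 5.99 after SGI-110, 5.93, 6.01 and 5.57 after ASTX660, and 6.04, 6.10 and 5.98 after the combination. SGI-110 and solvent arrays were separate for HERC6, while combination and ASTX660 arrays overlapped. HERC6 rose by 0.53 after SGI-110 (1.44-fold, adjusted p = 0.012), a call that was lost without the solvent array of experiment 9 (adjusted p = 0.0569) or of experiment 13 (0.0519). ISG15 read 7.89, 7.84 and 7.88 in solvent, 7.92, 7.98 and 8.20 after SGI-110, 8.15, 7.94 and 7.90 after ASTX660, and 8.23, 8.07 and 8.16 after the combination. All 9 treated ISG15 arrays were above the 3 solvent arrays, the nearest of them barely so. Only the combination differed from solvent (0.28, adjusted p = 0.0344), and that call was lost without any of the 3 solvent arrays or the combination array of experiment 2 or 13, at up to 0.117. UBE2L6, the conjugating enzyme, and USP18, the protease that removes ISG15, differed by -0.12 and 0.11 after SGI-110 (adjusted p = 0.43 and 0.786), with solvent levels of 9.01 ± 0.126 and 5.26 ± 0.246.

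The IFI genes, named for their induction by interferon, were grouped with LGALS3BP and EPSTI1, and the 4 of this group that could be tested rose after SGI-110. IFI6, a small hydrophobic protein of mitochondrial and endoplasmic membranes, read 5.98, 6.12 and 6.38 in solvent, 6.84, 6.72 and 7.28 after SGI-110, 6.36, 6.09 and 6.56 after ASTX660, and 7.01, 6.83 and 7.15 after the combination. In each group the array of experiment 13 was the highest for IFI6, and the groups with and without SGI-110 did not overlap. IFI6 rose by 0.79 (SE 0.154, 1.73-fold, adjusted p = 0.00363). LGALS3BP, a secreted galectin-binding glycoprotein, read 5.60, 5.88 and 5.78 in solvent, 6.18, 6.45 and 6.63 after SGI-110, 5.95, 5.74 and 6.02 after ASTX660, and 6.32, 6.51 and 6.46 after the combination. Its arrays with SGI-110 were likewise all the higher ones, and the rise was 0.67 (SE 0.117, 1.59-fold, adjusted p = 0.00176). IFI16, a nuclear DNA sensor, read 6.75, 6.82 and 6.65 in solvent, 7.03, 7.30 and 7.32 after SGI-110, 6.92, 6.84 and 6.70 after ASTX660, and 7.07, 7.20 and 7.32 after the combination. For IFI16 the sets with and without SGI-110 were separate but close. It rose by 0.48 after SGI-110 (1.39-fold, adjusted p = 0.00469) and by 0.38 in the combination against ASTX660 (adjusted p = 0.0177), the latter lost without the ASTX660 or combination array of experiment 13 (0.066 and 0.0796). IFI35, which forms a complex with NMI, read 7.77, 7.76 and 7.77 in solvent and 8.13, 8.05 and 8.17 after SGI-110, and 7.94, 7.68 and 7.70 after ASTX660 and 8.23, 7.98 and 8.22 after the combination. It rose by 0.35 (1.28-fold, adjusted p = 0.012), and the lowest combination array was just above the highest ASTX660 array.

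**Figure D2:**
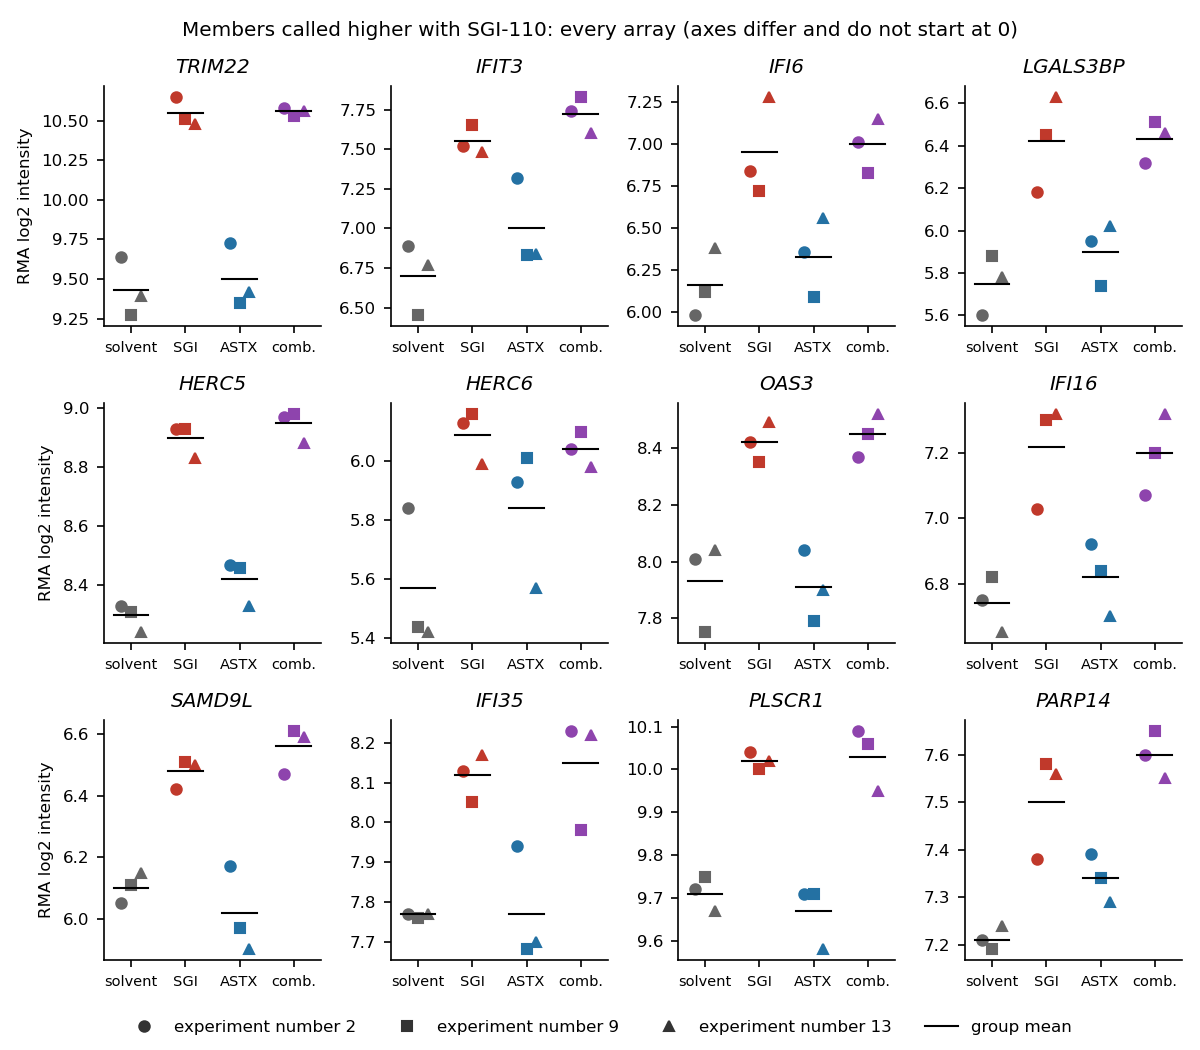
Log2 intensity of the 12 members called higher after SGI-110, 1 panel a gene, with a point for each of the 12 arrays, marker shapes for experiments 2, 9 and 13, and black lines for group means. Panels have their own axes, which do not start at 0. In 10 of the panels all points of the SGI-110 and combination groups are above all points of the solvent and ASTX660 groups, and HERC6 and PARP14 are the exceptions.

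Of 7 other antiviral effectors tested, SAMD9L and PLSCR1 rose after SGI-110. SAMD9L, a restrictor of poxvirus translation that also limits myeloid growth, read 6.05, 6.11 and 6.15 in solvent, 6.42, 6.51 and 6.50 after SGI-110, 6.17, 5.97 and 5.90 after ASTX660, and 6.47, 6.61 and 6.59 after the combination. The SAMD9L sets did not overlap, with a rise of 0.37 after SGI-110 (1.30-fold, adjusted p = 0.00765) and of 0.54 in the combination against ASTX660 (1.45-fold, adjusted p = 0.000681). Its neighbour and relative SAMD9 read 7.78, 7.67 and 7.76 in solvent, 7.97, 7.93 and 7.96 after SGI-110, 8.04, 7.77 and 7.65 after ASTX660, and 8.03, 8.11 and 8.01 after the combination. For SAMD9 the ASTX660 array of experiment 2 lay among the arrays with SGI-110. SAMD9 differed by 0.22 after SGI-110 (adjusted p = 0.105, or 0.0434 with the replicate block) and was higher in the combination than in solvent (0.32, adjusted p = 0.0204), which was lost without the solvent (0.0833) or combination (0.0638) array of experiment 9. PLSCR1, a membrane phospholipid scramblase, read 9.72, 9.75 and 9.67 in solvent, 10.04, 10.00 and 10.02 after SGI-110, 9.71, 9.71 and 9.58 after ASTX660, and 10.09, 10.06 and 9.95 after the combination. Its replicates were tight and its sets apart, with a rise of 0.31 (1.24-fold, adjusted p = 0.00196). With the mean of its 3 probe sets in place of the brightest, the PLSCR1 combination against ASTX660 no longer passed (adjusted p = 0.0545). The second PLSCR1 probe set gave 0.31 after SGI-110 and 0.32 for the combination against ASTX660. The third was dim (2.59 in solvent) and gave 0.03 and -0.17.

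XAF1, an interferon-induced antagonist of XIAP, which is itself an inhibitor of apoptosis protein, was the member with the most negative difference after SGI-110. Its values were 8.46, 8.70 and 8.61 in solvent, 8.19, 8.16 and 8.27 after SGI-110, 7.97, 8.57 and 8.47 after ASTX660, and 8.15, 8.33 and 8.38 after the combination. SGI-110 arrays were all below solvent arrays, and the ASTX660 array of experiment 2 was the lowest of the 12. The XAF1 difference of -0.38 (SE 0.125) did not pass (adjusted p = 0.0537) and did pass with the replicate block (adjusted p = 0.00266) or with the mean of the gene's 3 probe sets (0.0131). The combination differed from solvent by -0.30 (adjusted p = 0.112, or 0.0129 with the block) and from ASTX660 by -0.04 (adjusted p = 0.853). The other bright probe set of XAF1 gave -0.35 for the combination against ASTX660, which was called (adjusted p = 0.0232), and -0.40 for SGI-110 against solvent (adjusted p = 0.0138), so the XAF1 calls turn with the probe set. BST2, or tetherin, which holds budding virus at the cell surface, read 9.99 ± 0.031 in solvent and 9.91 ± 0.102 after SGI-110. CMPK2, a mitochondrial nucleotide kinase, read 8.80 ± 0.088 and 8.77 ± 0.123 in the same groups, and IFITM1, which blocks virus entry, 4.71 ± 0.079 and 4.72 ± 0.106. None of these 3 passed in any comparison.

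PARP9, DTX3L and PARP14 are ADP-ribosyltransferases and a ubiquitin ligase that act together, and of them PARP14 rose after SGI-110. PARP14 read 7.21, 7.19 and 7.24 in solvent, 7.38, 7.58 and 7.56 after SGI-110, 7.39, 7.34 and 7.29 after ASTX660, and 7.60, 7.65 and 7.55 after the combination. Its lowest SGI-110 array was just below its highest ASTX660 array, while SGI-110 and solvent arrays did not overlap. The rise after SGI-110 was 0.29 (1.23-fold, adjusted p = 0.0112), lost without the SGI-110 array of experiment 9 (0.0514) and with the mean of its 2 probe sets (0.274). The second of these was dim (3.86 in solvent) and gave -0.04 after SGI-110 and 0.03 for the combination against ASTX660. With the mean of both probe sets the combination of PARP14 against solvent did not pass either (0.39 and adjusted p = 0.00179 from the brighter probe set, 0.369 from the mean). The combination of PARP14 against ASTX660 (0.26, adjusted p = 0.02) was lost with the mean (0.189) and without the ASTX660 array of experiment 9 or 13 or the combination array of 2 or 9 (at up to 0.0639). PARP9 read 6.93, 6.88 and 6.86 in solvent, 7.02, 7.15 and 7.16 after SGI-110, 7.18, 7.16 and 6.98 after ASTX660, and 7.14, 7.26 and 7.19 after the combination, so all treated arrays were above solvent. It passed only for the combination against solvent (0.31, adjusted p = 0.0124), and with the replicate block also for SGI-110 (0.22, adjusted p = 0.0639, block 0.0379). The other probe set of PARP9 differed less after SGI-110, by 0.06. Its means were 6.36 in solvent, 6.27 after ASTX660 and 6.47 after the combination. For the combination against ASTX660 it differed more, by 0.20 beside 0.09. DTX3L differed by 0.12 after SGI-110 (8.68 ± 0.035 and 8.81 ± 0.058, adjusted p = 0.37).

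Of the transcription factors IRF9, the DNA-binding part of the ISRE complex, read 6.71, 6.78 and 6.70 in solvent, 6.90, 6.92 and 7.20 after SGI-110, 6.67, 6.82 and 6.61 after ASTX660, and 7.03, 6.97 and 7.18 after the combination. All arrays with SGI-110 were above all without. IRF9 did not pass after SGI-110 alone (0.27, adjusted p = 0.062, or 0.0286 with the replicate block). It was higher in the combination than after ASTX660 (0.36, adjusted p = 0.0177), lost without the ASTX660 (0.0619) or combination (0.0802) array of experiment 13, and higher than in solvent (0.33, adjusted p = 0.0257), lost after quantile normalization (0.0601) and without any of the solvent arrays or the combination array of experiment 2 or 13 (at up to 0.105). IRF1, induced above all by interferon gamma, differed by 0.00 after SGI-110 (8.45 ± 0.094 and 8.45 ± 0.064). For the combination against ASTX660 the IRF1 interval was -0.14 to 0.14.

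MX1 and MX2, dynamin-like GTPases that trap viral nucleocapsids, did not rise. MX1 stayed near the array median, which it exceeded in 3 arrays, and read 4.64, 4.66 and 4.83 in solvent, 4.79, 4.79 and 4.51 after SGI-110, 4.54, 4.66 and 4.62 after ASTX660, and 4.45, 4.42 and 4.10 after the combination. The 3 combination arrays were the lowest of the 12. MX1 fell by 0.39 after the combination relative to solvent (SE 0.113, adjusted p = 0.0299), and the call was lost without the solvent array of experiment 2 (0.0507) or 9 (0.0631) or the combination array of experiment 13 (0.128). MX1 passed the brightness filter only through the solvent array of experiment 13 and the SGI-110 arrays of experiments 2 and 9. Entry to the test thus rested on arrays where MX1 was high. Without any of these arrays, or with a filter on the mean over 12 arrays, MX1 was not tested. With no brightness filter it was still called lower. MX2 read 8.95 to 9.09 over all 12 arrays and differed by -0.04 after SGI-110 (adjusted p = 0.712). The guanylate-binding GTPases GBP1 and GBP2 were too dim to test.

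The 10 members too dim to test were IFIT1, IFIT2, GBP1, GBP2, RSAD2, ISG20, IFI27, IFI44, IFI44L and EPSTI1. Their mean levels in solvent and after SGI-110 were 3.46 and 3.46 for IFIT1, 4.15 and 4.06 for RSAD2 (viperin, a radical enzyme that makes a chain-ending nucleotide), 3.09 and 3.13 for IFI44, and 2.87 and 2.84 for IFI44L. These genes are among those that interferon raises most in many cells, and here they stayed below the array medians in each group. IFIT2 read 4.15 ± 0.134 in solvent and 4.44 ± 0.109 after SGI-110. ISG20 read 4.50 and 4.69, IFI27 3.89 and 3.78, EPSTI1 3.47 and 3.54, GBP1 2.99 and 3.09, and GBP2 3.27 and 3.28. With all genes fitted by their brightest probe set and no brightness filter, none of the 10 was called in any comparison. The dimmer probe sets were not in that fit. That of ISG20 gave 0.30 after SGI-110 and 0.39 for the combination against ASTX660, beside 0.19 and -0.03 from the brightest. Those of EPSTI1, GBP1, GBP2, IFI44 and RSAD2 gave -0.11 to 0.20 and -0.22 to 0.09, and that of IFIT2 is described below.

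SGI-110 was also tested in the presence of ASTX660, on arrays that did not enter the group means of the first comparison. Both comparisons used the estimate of spread from all 12 arrays, and both came from the same numbered experiments. In the combination 13 of 34 members were higher than after ASTX660 alone and 0 were lower, with a median difference of 0.20 (range -0.28 to 1.06). Of all genes 16.1% were called and 8.37% were called higher in that comparison. Of the 12 members called after SGI-110 alone and the 13 called here, 11 were called in both, which is 11 of 12 and 11 of 13. Over all genes tested 1955 and 2038 were called, and 1457 were called in both in the same direction. HERC6 passed only the first (0.20 in the second, adjusted p = 0.318), and OAS1 and IRF9 only the second. Members had the same sign in both comparisons in 29 of 34 cases, against 9908 of 12689 genes tested, and genes are not independent of each other. The plot of each member's difference in both comparisons shows this gene by gene.

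**Figure D3:**
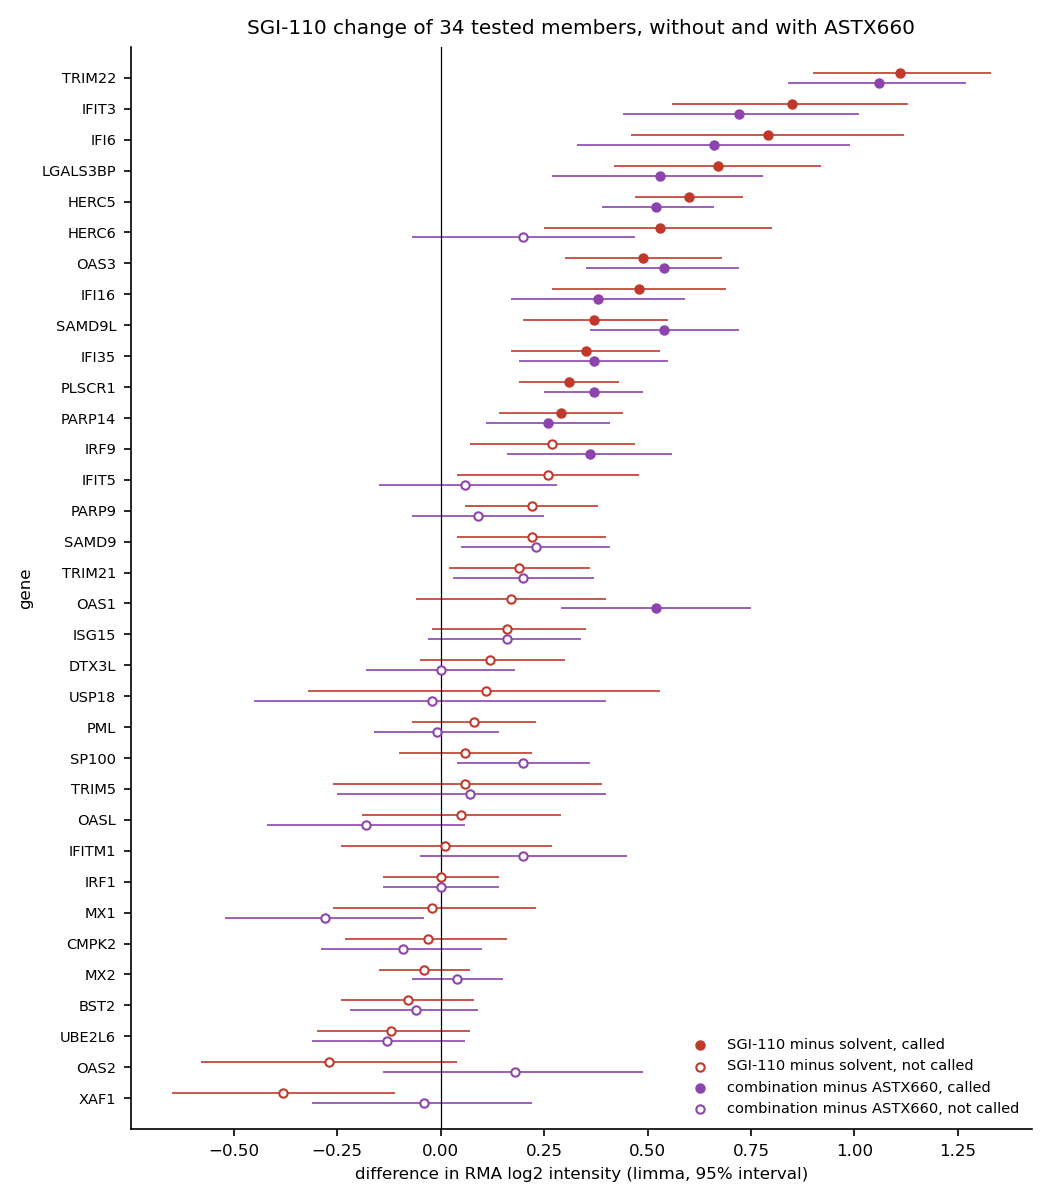
Difference in log2 intensity with its 95% interval for each of the 34 members tested, in red for SGI-110 minus solvent and in purple for the combination minus ASTX660. The group means of these comparisons share no array, and the estimate of spread is shared. Filled points were called at an adjusted p under 0.05 (12 and 13 members) and open points were not. TRIM22 stands at the top with 1.11 and 1.06, and XAF1 at the bottom with -0.38 and -0.04.

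The combination against solvent gave the longest list, with 17 members higher and 1 lower, where 17.9% of all genes were called and 12.1% were called higher. The median member difference was 0.26 (range -0.39 to 1.12). This comparison shares its solvent arrays with that of SGI-110 alone. TRIM22 differed by 1.12, IFIT3 by 1.02, IFI6 by 0.84, LGALS3BP by 0.68, HERC5 by 0.65 and OAS3 by 0.51, beside 1.11, 0.85, 0.79, 0.67, 0.60 and 0.49 for SGI-110 alone. ISG15, PARP9, SAMD9, IRF9 and OAS1 were called higher in this comparison and not for SGI-110 alone. OAS1 differed from solvent by 0.36 (adjusted p = 0.0342), which was lost after quantile normalization (0.0502) and without any of the 3 solvent arrays or the combination array of experiment 2 or 13 (at up to 0.126). HERC6 differed by 0.47 (adjusted p = 0.0191), lost without the solvent array of experiment 9 or 13 or the combination array of experiment 2 or 9 (at up to 0.0828). Without the solvent array of experiment 9, 12 members in all were called and the share of all genes fell to 11.0%. Of all calls in this comparison 67.4% were higher, 54.1% after quantile normalization, under which 15 members were higher and 1 lower.

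No member passed after ASTX660 alone. Of 34 members 0 were called by limma, 4 had an unadjusted p under 0.05, and the share of all genes called was 0.0% (0 genes, with 894 at an unadjusted p under 0.05). The median member difference was 0.06 (range -0.33 to 0.29). The 4 were PARP9 (0.22), IFIT3 (0.29), HERC6 (0.27) and OAS2 (-0.33), with adjusted p between 0.682 and 0.701. In solvent and after ASTX660 the other probe set read 6.36 and 6.27 for PARP9, and 6.59 and 6.70 for IFIT3. Those of HERC6 and OAS2 were dim. IFIT3 had a 95% interval of 0.01 to 0.58 and OAS2 one of -0.65 to -0.02, so changes of some size in single members were within the precision of 3 arrays. Adding ASTX660 after SGI-110 also gave 0 member calls against SGI-110 alone, where 1 member had an unadjusted p under 0.05 and 0.0% of all genes were called (370 at an unadjusted p under 0.05). That member was MX1 (-0.37, SE 0.113, adjusted p = 1.0). TRIM22 differed by 0.01 between the groups (95% interval -0.21 to 0.22), HERC5 by 0.05 (-0.09 to 0.18) and IFIT3 by 0.17 (-0.11 to 0.46).

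The ASTX660 array of experiment 2, which stood apart on the third component, was left out to see which calls changed. Without it limma called 14 members higher and 1 lower for SGI-110 against solvent, 17 and 2 for the combination against solvent, and 15 and 0 for the combination against ASTX660. In the first 2 of these the array enters only through the shared estimate of spread, while in the last it also enters the ASTX660 mean. For SGI-110 the added members were XAF1 (adjusted p = 0.00471, lower), SAMD9 (0.021) and PARP9 (0.0471). For the combination against ASTX660 they were SAMD9 (0.34 without the array, 0.23 with it, adjusted p = 0.00456) and TRIM21 (0.28 and 0.20, adjusted p = 0.0199). The comparisons that gave 0 member calls with all arrays gave 0 again.

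Whether the response to SGI-110 differed with ASTX660 present was tested as an interaction, that is, the change after both drugs less the changes after each drug added together. It gave 0 member calls in limma, with 2 members at an unadjusted p under 0.05, and 0.0% of all genes (204 at an unadjusted p under 0.05). Those members were OAS2 (0.45, SE 0.207) and OAS1 (0.35, SE 0.152), each with an adjusted p of 1.0. Their other probe sets did not repeat these positive values. That of OAS1 gave 0.54 for SGI-110 against solvent and 0.45 for the combination against ASTX660. Those of OAS2, both dim, gave -0.02 and 0.06 for the first and -0.02 and -0.06 for the second. For TRIM22 the interaction was -0.06 (95% interval -0.36 to 0.25), for IFIT3 -0.12 (-0.53 to 0.28) and for HERC6 -0.32 (-0.71 to 0.06). The interaction cannot separate ASTX660 from a difference in SGI-110 exposure in the combination.

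The rest of the interferon pathway was read from lists of its parts, beside shares of all genes called of 15.4% (9.5% higher) for SGI-110 against solvent and 16.1% (8.37% higher) for the combination against ASTX660. Of 10 interferon genes, 9 had a probe set of their own and 0 exceeded the brightness filter, with means over 12 arrays from 2.54 (IFNK) to 4.15 (IFNW1) and 3.27 for IFNB1. Secreted interferon was not measured. Of 6 receptor chains tested 3 rose after SGI-110, namely IFNGR1 (0.45, adjusted p = 0.000462) and IFNGR2 (0.32, adjusted p = 0.00418), the chains of the interferon gamma receptor, and IL10RB (0.39, adjusted p = 0.00367), which serves interferon lambda and IL-10. In the combination against ASTX660 the same count of 3 rose. The type I receptor chains IFNAR1 and IFNAR2 differed by 0.06 and 0.19 (adjusted p = 0.69 and 0.0613).

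Of 10 signalling kinases and factors tested, 3 rose and 1 fell after SGI-110, as many as in the combination against ASTX660. IRF7, the master factor of interferon alpha genes and itself interferon-induced, read 7.28, 7.43 and 7.29 in solvent, 7.83, 7.93 and 8.15 after SGI-110, and 7.45, 7.59 and 7.36 after ASTX660. It rose by 0.64 (SE 0.0901, adjusted p = 0.000411) and by 0.63 in the combination against ASTX660 (adjusted p = 0.000418). STAT3 rose by 0.42 (adjusted p = 0.000636) and the receptor kinase TYK2 by 0.28 (adjusted p = 0.0316), while IRF8, a myeloid lineage factor, fell by 0.42 (adjusted p = 0.000619). Of 12 nucleic acid sensors and adaptors tested, 4 rose, namely the kinase TBK1 (0.37, adjusted p = 0.000137), the RNA sensor IFIH1 (0.35, adjusted p = 0.041), the adaptor STING1 (0.32, adjusted p = 0.0406) and TLR9 (0.41, adjusted p = 0.0406). The RNA sensor RIGI differed by 0.11 (adjusted p = 0.468). Fewer sensors were called in the other comparisons, 2 of 12 for the combination against ASTX660 (TBK1 and STING1) and 3 for the combination against solvent (those and IFIH1). Of 7 brakes on the pathway 1 rose, the phosphatase PTPN6 (0.21, adjusted p = 0.0397), a share near that of all genes, and 2 were higher in the combination than after ASTX660 (PTPN6 and PIAS1).

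A further list held 44 interferon-stimulated genes outside the set, of which 32 were tested. After SGI-110, 6 rose and 1 fell, where 9.5% of all genes were called higher and 15.4% were called in either direction. The risers were TAP1, the peptide transporter of antigen presentation (0.62, adjusted p = 0.000355), TRIM38 (0.40, adjusted p = 0.00201), SHFL (0.41, adjusted p = 0.00398), GBP3 (0.44, adjusted p = 0.0171), PARP12 (0.29, adjusted p = 0.0394) and IFITM3 (0.21, adjusted p = 0.0435). WARS1, the tryptophan tRNA ligase that interferon gamma induces, fell by 0.37 (adjusted p = 0.000898). The counts were 6 higher and 1 lower for the combination against ASTX660, and 9 higher and 1 lower for the combination against solvent, where 17.9% of all genes were called. ASTX660 alone gave 0 calls in each of these lists by limma.

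**Figure D4:**
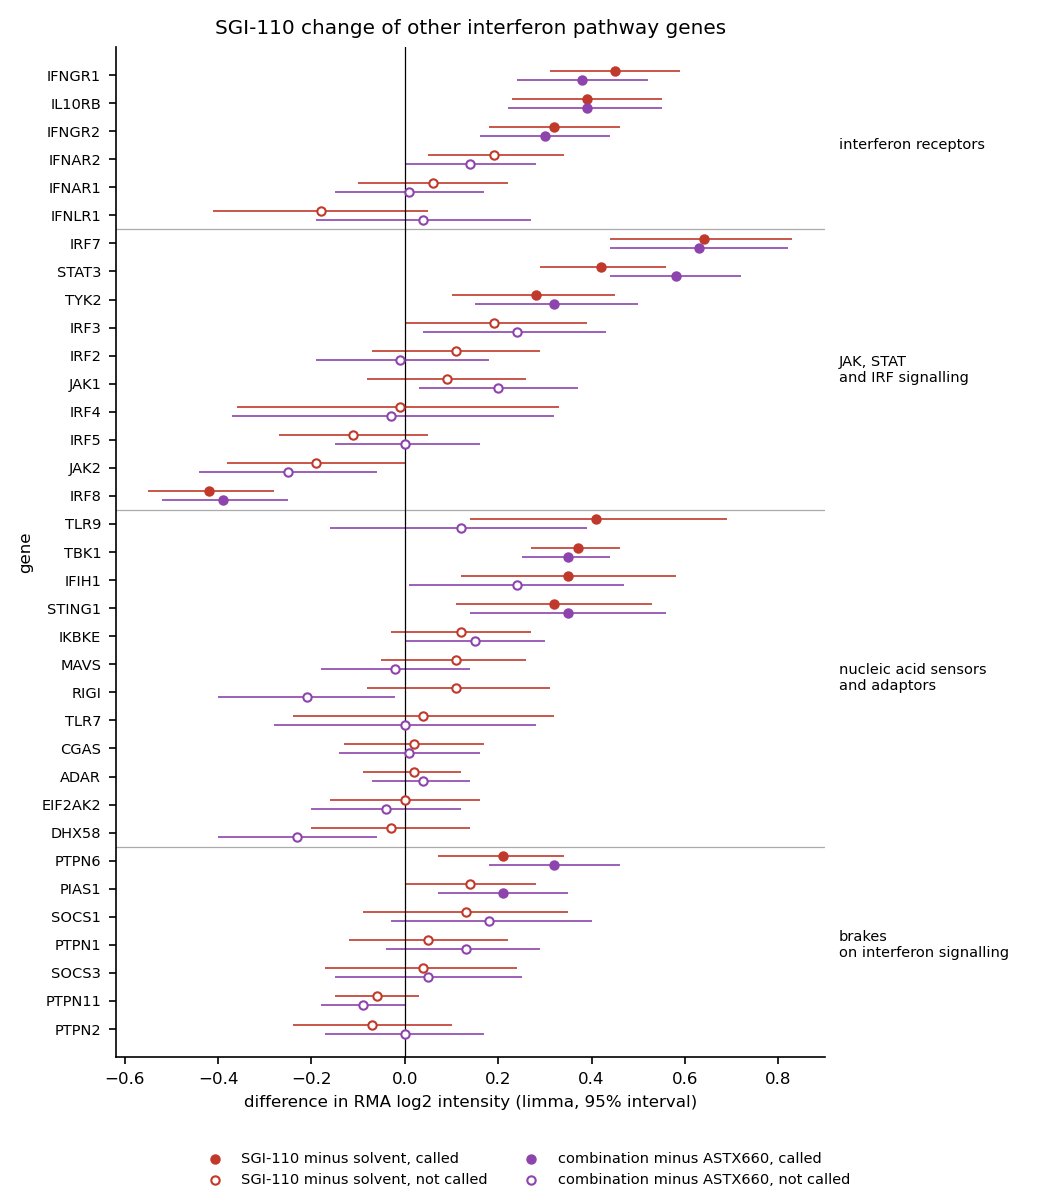
Difference in log2 intensity with its 95% interval for receptors, signalling factors, sensors and brakes of the interferon pathway that were tested, in red for SGI-110 minus solvent and in purple for the combination minus ASTX660. Filled points were called. IRF7 lies farthest right at 0.64 and 0.63, and IRF8 is below 0 in both at -0.42 and -0.39.

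Some markers of cell identity moved with the members. Of 5 myeloid markers tested 2 rose after SGI-110, LYZ by 0.24 and CEBPA by 0.17 (adjusted p = 0.0143 and 0.025), beside 15.4% of all genes called. MPO differed by -0.06, CSF3R by 0.12 and SPI1 by 0.16 (adjusted p = 0.756, 0.515 and 0.467). The lymphoid and erythroid markers tested, CD3D, CD3E, CD79A, HBB and ALAS2, differed by 0.21, -0.09, -0.04, -0.08 and 0.01, and none passed. KRT18, an epithelial keratin, rose by 0.83 (adjusted p = 0.0135), and by 0.76 in the combination against ASTX660 (adjusted p = 0.0211), and KRT8 differed by 0.54 (adjusted p = 0.0719), while EPCAM and CDH1 had means over 12 arrays of 2.76 and 2.99 and were too dim to test. The plasmacytoid dendritic cell markers CLEC4C and LILRA4, from a cell type that makes much interferon, had means of 3.02 and 4.25 and were too dim to test as well, and the third of that list, TCF4, differed by 0.08 (adjusted p = 0.768). The part of these markers in the member differences was not tested.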

How the data were processed

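Per the labels, RNA of ML-2 cells was hybridised to 12 Affymetrix arrays, 3 in each of 4 groups. The deposited values are log2 intensities made with RMA in the affy package, per the submitters' processing notes, and ranged from 2.078 to 14.38 over 54675 probe sets. The sources used here do not give whether all arrays were normalized in 1 run. Such values compress low signals, and folds are ratios of array signal.

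Of the probe sets, 42898 were listed in the platform annotation, 11777 were not, and 1801 carried several symbols and were set aside. After control probe sets were removed 41091 were used, and 41037 matched the RefSeq gene table. The log2 values were used as deposited. Genes were tested with limma 3.58.1 in R 4.3.3, with a mean per group, an intensity trend, 8 residual degrees of freedom (median prior 5.927) and Benjamini-Hochberg adjustment over 12689 genes within each of 6 comparisons. The model was tested on simulated data first. The members, the pathway lists, the motifs and the alternatives were chosen with earlier results of these data known, so counts over them are descriptions. Values in every array are given for members called in the comparisons with SGI-110, and of other pathway lists the called genes and up to 4 by smallest adjusted p are named.

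The experiment numbers of the titles were checked for pairing. Deviations of same-numbered solvent and SGI-110 arrays correlated at 0.377, 0.367 and 0.572 over genes for numbers 2, 9 and 13, and those of solvent and combination arrays at 0.15, 0.159 and 0.541, all above the 0.1 required. For ASTX660 and combination arrays they were 0.057, 0.158 and 0.539, so the numbers were not taken to pair those. The main fit used no pairing in any comparison, and in limma the numbers entered only as the replicate block. That the numbers name the independent experiments is a reading of the titles.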

Additional observations from a re-analysis of the deposited data

How the results depend on the processing

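No count of members called moved by more than 1.5 times under the 22 alternatives of each comparison, and no called member changed sign. For SGI-110 against solvent the alternatives called 11 to 18 members (leaving out 1 array at a time, 11 to 15), and 10 members were called under each of them. For the combination against solvent they called 12 to 20 (leaving out 1 array, 12 to 19), 11 under each. For the combination against ASTX660 they called 11 to 15, both over all alternatives and leaving out 1 array, 9 under each. The interaction, ASTX660 against solvent, and the combination against SGI-110 gave 0 members under each alternative. With the replicate block the members called were 17, 20 and 15 in the first 3 comparisons, and in the last, where the numbers did not pair the arrays, SAMD9 (adjusted p = 0.0324) and SP100 (0.0271) were added. The other probe sets of SP100 went both ways, as given above. Beside SAMD9, SP100 and the members given with a block value in the text above, the block changed no other member call. It raised the genes called overall from 1955 to 3202 for SGI-110, from 2275 to 3632 for the combination against solvent and from 2038 to 3378 for the combination against ASTX660, and from 0 to 1 for ASTX660 and from 0 to 10 for the combination against SGI-110. Leaving out an array lowered them by over 1.5 times in 5 cases. These were 1239 without the solvent array of experiment 9 and 1286 without the SGI-110 array of experiment 13 (SGI-110 against solvent), 1393 without that solvent array (combination against solvent), and 1307 and 1309 without the combination arrays of experiments 2 and 13 (combination against ASTX660). Median centring of each array gave 77.3% of calls higher for the combination against solvent, beside 67.4% as deposited. The cause of these shifts was not tested. Single calls of HERC6, PARP14, IFI16, OAS1, IRF9, ISG15, SAMD9, XAF1, MX1 and PLSCR1 that depend on 1 array or probe set are given with their values above. With 3 arrays a group, members near the array median (MX1, OAS2, IFITM1) are the least certain.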

Other observations

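IFIT2, whose brightest probe set differed by 0.29 between SGI-110 and solvent, had a dimmer probe set with a larger difference. That probe set read 3.32 on average in solvent and 4.15 after SGI-110, a difference of 0.83, and 3.28 after ASTX660 and 4.19 after the combination, a difference of 0.91. It lay below the array medians in these groups, entered no test, and was singled out after its values were seen.

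The SGI-110 differences of 4 called members were also taken within each numbered experiment. Their SGI-110 arrays did not overlap their solvent arrays, so all these differences had to be positive, and only their sizes are informative. For experiments 2, 9 and 13 they were 1.01, 1.25 and 1.09 for TRIM22, 0.63, 1.20 and 0.72 for IFIT3, 0.59, 0.62 and 0.59 for HERC5, and 0.86, 0.60 and 0.90 for IFI6. HERC5 was the most even of these 4. XAF1 gave -0.27, -0.53 and -0.34.

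The arrays numbered 13 also differed from the others in some members, whatever the treatment. IFI6 was highest in experiment 13 in all 4 groups, by 0.33, 0.50, 0.34 and 0.23 over the mean of experiments 2 and 9 in solvent, SGI-110, ASTX660 and the combination. USP18, the ISG15 protease, was likewise highest there, by 0.38, 0.71, 0.31 and 0.49. HERC5, HERC6, UBE2L6, DTX3L and CMPK2 were lowest there in all 4 groups, out of 34 members tested. Such counts were not made over all genes, and the second principal component set the arrays numbered 13 apart over the genes tested. Whether the members stand out in this respect is therefore not known. The differences are values of 1 experiment each and were not tested.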
